A study of Mus musculus with 3 samples.

Results

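The 5 genes described here, Smpdl3a, Slc9b2, Ramp1, Cd7 and 1110032F04Rik, were picked because they were far higher in induced regulatory T cells (iTreg) than in Th2 cells. The choice set no numeric limit, so the difference between iTreg and Th2 is given below as a description and not as a finding. They are 5 of 19747 genes that could be named on the array, and 7 of its 39429 probes belong to them. Ramp1 had 3 probes and each of the other genes had 1.

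The starting cells were splenic naive CD4 T cells of C57BL/6 mice (6 to 8 weeks old), purified by MACS, which holds labelled cells on a magnetic column. All cultures ran 3 days on anti-CD3e and anti-CD28, both at 10 µg/ml. For Th2, IL-4 was used at 5 ng/ml and IL-2 at 1 ng/ml, and interferon gamma was blocked with 2 µg/ml of antibody. For Th9, TGF-beta 1 at 2 ng/ml was combined with IL-4 at 1 ng/ml and IL-2 at 0.2 ng/ml, and the blocking antibody was at 5 µg/ml. For iTreg, TGF-beta 1 was at 5 ng/ml and IL-2 at 0.4 ng/ml, and antibodies at 5 µg/ml blocked interferon gamma as well as IL-4. Each culture was compared with naive cells on 1 array, with naive RNA in the Cy3 channel and culture RNA in the Cy5 channel and without a dye swap. The labels do not say how many mice were used, whether the 3 naive channels share an RNA extract, or what share of the iTreg culture became regulatory cells. No culture was activated without polarising cytokines, so a difference from naive holds activation and medium together.

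TGF-beta, in the absence of IL-4, turns activated naive CD4 T cells into cells that express Foxp3, which directs the regulatory T cell programme. IL-4 directs them to the Th2 fate, and IL-4 with TGF-beta to the Th9 fate. The 5 genes share no known pathway. Smpdl3a encodes an acid sphingomyelinase-like phosphodiesterase, an enzyme of lysosomes and of the extracellular space that cleaves nucleotides, and it is a known target of the liver X receptors (LXR) in macrophages. Slc9b2 encodes NHA2, an antiporter that exchanges sodium ions for protons. Ramp1 encodes an accessory membrane protein that joins the calcitonin receptor-like receptor (Calcrl) to form the receptor for the neuropeptide CGRP. Cd7 encodes an immunoglobulin-family protein on the surface of T cells and NK cells. 1110032F04Rik is a protein-coding gene in RefSeq that still has only its RIKEN cDNA name.

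Promoter sequences were found in RefSeq for only 2 of the 5 genes, Ramp1 and Slc9b2, and both are shown. The windows hold 200 bases that end 51 bases before the transcription start, from build GRCm38.p6, on the plus strand. The Ramp1 window is chr1:91179572-91179771 and the Slc9b2 window is chr3:135307450-135307649. Capitals mark matches to any of 5 motifs, searched on both strands: CAGAC, bound by SMAD proteins, TTCNNNGAA, bound by STAT5, the STAT6 motif, which has the same ends as that of STAT5 with 1 more base between them, GTAAACA, bound by forkhead factors such as Foxp3, and AGATAA, bound by Gata3 and related factors. No motif overlapped another in these windows.
Ramp1: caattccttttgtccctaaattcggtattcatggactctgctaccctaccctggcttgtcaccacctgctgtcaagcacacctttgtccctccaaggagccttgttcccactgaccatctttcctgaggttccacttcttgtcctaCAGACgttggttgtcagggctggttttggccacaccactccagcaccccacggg
Slc9b2: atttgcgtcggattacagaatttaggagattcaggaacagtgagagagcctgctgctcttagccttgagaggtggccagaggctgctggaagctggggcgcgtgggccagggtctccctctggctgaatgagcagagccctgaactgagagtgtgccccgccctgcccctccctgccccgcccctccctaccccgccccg
The Ramp1 window held 1 match, to the SMAD motif, and the Slc9b2 window held none. Of 32851 windows of this length 35.8% held the SMAD motif, 5.76% the STAT5 motif, 4.78% the STAT6 motif, 2.58% the forkhead motif and 8.42% the Gata3 motif. The share of G and C bases was 53.5% for Ramp1 and 63.5% for Slc9b2, against a median of 51.5% over all windows. A match says only that these letters occur in the window.

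The arrays allowed all 5 genes to be measured. Of 43020 gene spots on each array, the naive channel exceeded background clearly at 53.0% to 54.1% and the culture channel at 48.9% to 51.0%, and none was saturated. The level of a gene varied little over the 3 naive channels, with a median SD of 0.0478 log2 units over 11514 genes. The defining genes followed the labels. Foxp3 was at log2 3.49 over naive in iTreg, 1.28 in Th9 and -0.68 in Th2, Il4 at 5.08 in Th2 and 1.04 in Th9, and Il9 at 6.52 in Th9. Il4 and Il9 were not well above background in iTreg. Il9 was also well above background in Th2, but without a ratio there because naive cells were not on that array. All 7 CD4 T cell markers examined were well above background in every channel, with a summed intensity of 354847 to 411055 in naive cells, 195719 in Th2, 153398 in Th9 and 268304 in iTreg. Of these markers 3 were at least 2-fold higher in iTreg than in Th2 (Cd3e 1.05 ± 0.35, Cd3d 1.03 ± 0.31 and Cd3g 1.02 ± 0.32), where 6.87% of all measured genes were. All 3 lay within their error of the 2-fold limit, so these calls are not firm. Error is given as ± the scanner software's error of the spot (n = 1 array); with 1 array per culture there was no spread between replicates and no test.

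Measured against naive cells, the 5 genes fell into groups. Smpdl3a, Cd7 and, by its brightest probe, Ramp1 were lower in the Th2 culture than in naive cells, while Slc9b2 and 1110032F04Rik were higher than naive in all 3 cultures. In iTreg 4 of the 5 genes were at least 2-fold higher than in naive cells and none was lower, where 10.2% of 11116 measured genes were higher and 8.15% lower. In Th2 cells 3 of the 5 were at least 2-fold lower (14.5% of all genes) and 1 was higher (14.8%). Genes were counted by their brightest probe. With the mean over its first and second probes, Ramp1 was at -0.80 and no longer among the 3. The third Ramp1 probe was left out of this mean because its Th2 spot was not well above background (2.38-fold lower than naive). In Th9 cells, whose array the choice of genes did not use, 2 were lower (15.6%) and 2 were higher (15.5%). The median over the 5 genes was 2.33 in iTreg, -1.52 in Th2 and -0.58 in Th9, against medians of -0.02, -0.02 and -0.01 over all genes. The iTreg and Th2 values enter the comparison the genes were chosen on, so these counts are descriptions. The 3 comparisons with naive also share their control cells. In bulk RNA, fewer expressing cells and less RNA per cell cannot be told apart.

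**Figure D1:**
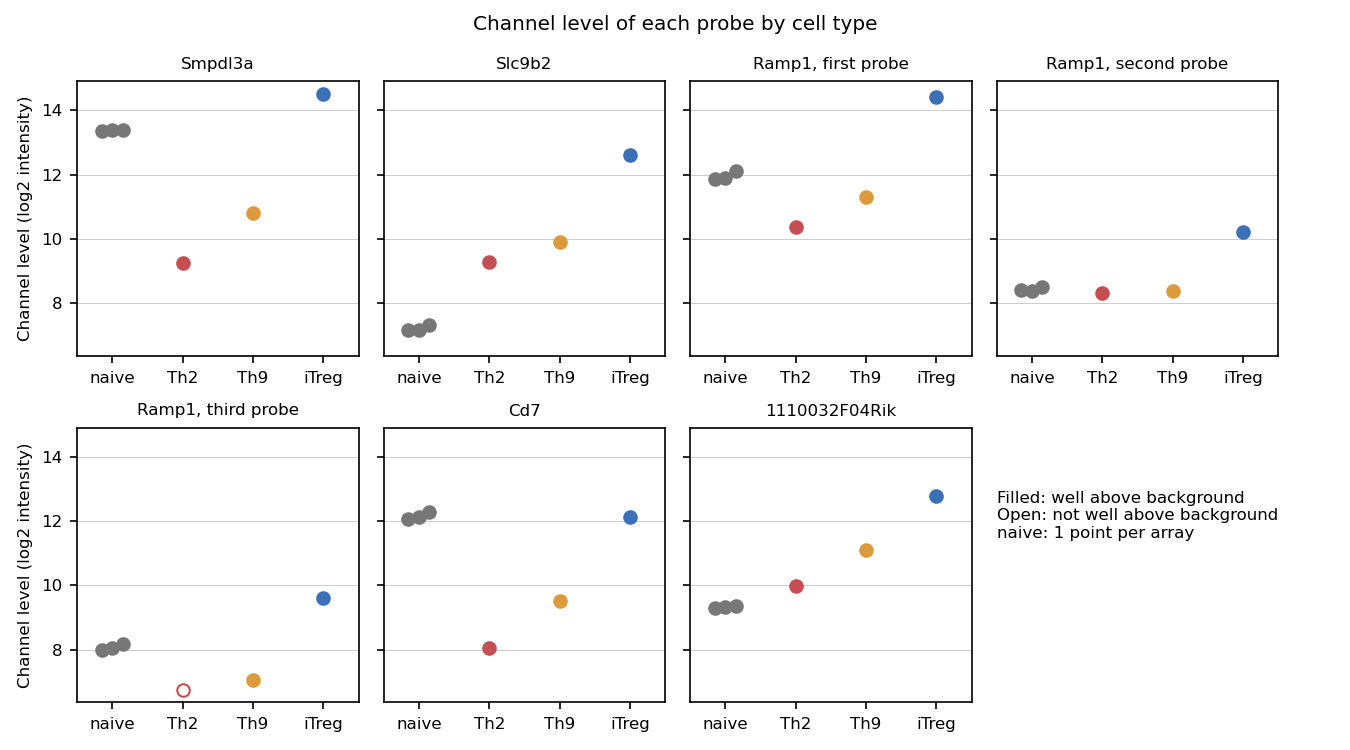
Channel level of each of the 7 probes (log2 intensity after loess and between-array scaling) in naive cells (1 point for each of the 3 arrays) and in the Th2, Th9 and iTreg cultures (1 array each). The iTreg point is the highest culture point in every panel; for Cd7 it lies among the naive points, and the open Th2 point of the third Ramp1 probe was not well above background.

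Smpdl3a (NM_020561) had the highest iTreg against Th2 value of the 5 genes. Its spot read 9165, 9041 and 8018.5 in the naive channels, before correction, over a background of 25 to 31. It read 702.5 in Th2, 2217 in Th9 and 26698 in iTreg, over 42 to 47.5. The 3 naive values were close together, both IL-4 cultures were far below them, and iTreg was above them. Relative to naive cells, Smpdl3a was at log2 -4.12 ± 0.45 in Th2, which is 5.75% of the naive level, and at -2.59 ± 0.32 in Th9, or 16.6%. In iTreg it was at 1.11 ± 0.23, a 2.15-fold higher level. The order was therefore iTreg, naive, Th9 and Th2, and each step was larger than 2 times its error. Smpdl3a ranked 19th from the lowest of 10942 genes in Th2 against naive, and 2nd from the highest of 10535 genes in iTreg against Th2 (5.23 ± 0.51, or 37.4-fold). The latter rank is part of why it was chosen. Macrophages also express Smpdl3a. Of 9 myeloid markers on the array, 7 to 9 were well above background in naive cells, 4 in Th2, 4 in Th9 and 6 in iTreg. Lyz2 and Cd14 were at background in every culture. In naive cells Lyz2 was above it on all 3 arrays and Cd14 on the Th9 array alone. The summed intensity of the 9 markers was 60967 to 70583 in naive cells, 34691 in Th2, 32779 in Th9 and 58920 in iTreg. Such a sum is carried by the brightest markers and does not measure the share of myeloid cells. Of 4 myeloid markers measured in both iTreg and Th2, 2 were at least 2-fold higher in iTreg (Siglech 1.03 ± 0.30 and Itgam 1.00 ± 0.31). Both lay within their error of the 2-fold limit. Csf1r was at 0.00 (-0.48 by another probe) and Itgax at -0.02. Siglech also marks plasmacytoid dendritic cells, whose other markers examined were at -1.31 (Bst2) and 0.41 (Ccr9). The part of myeloid cells, or of the lower CD4 T cell marker sums, in the results for Smpdl3a and Cd7 was not tested.

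Cd7 (NM_009854) resembled Smpdl3a in the IL-4 cultures but not in iTreg. The naive channels read 3925, 4011 and 4129, Th2 read 281, Th9 read 833 and iTreg read 4836.5. Cd7 was thus nearly lost in Th2, partly kept in Th9 and kept in full in iTreg. The log2 ratios over naive were -4.01 ± 0.48 in Th2 (6.21% of naive), -2.63 ± 0.33 in Th9 (16.1%) and -0.14 ± 0.20 in iTreg (90.4%). The iTreg value did not differ from naive beyond its error, and it ranged from -0.28 to 0.24 over the other processing settings. A high iTreg level of Cd7 relative to Th2 (3.86 ± 0.52) was therefore a level near naive and not a raised one. NK cells also carry CD7, and their markers moved in these data. All 10 NK markers examined were well above background in naive cells, against 8 in Th2, 6 in Th9 and 6 in iTreg. Their summed intensity was 82646 to 87954 in naive cells, 13967 in Th2, 7057 in Th9 and 8676 in iTreg, with Ncr1 and Klrb1c at background in every culture. Of 6 NK markers measured in both iTreg and Th2, 2 were at least 2-fold higher in iTreg (Klrd1 at 3.10 and Eomes at 1.34) and 1 was lower (Gzma at -3.67). Klrd1 was at -4.21 in Th2, -4.11 in Th9 and -1.11 in iTreg over naive. The part of NK cells in the Cd7 values was not tested.

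Ramp1 was measured by 3 probes that agreed on a high iTreg level and differed on the other cultures. The brightest, for transcript NM_016894, read 3284, 3246.5 and 3453 in the naive channels, 1530 in Th2, 3040 in Th9 and 24961 in iTreg. Its log2 ratio over naive was 2.33 ± 0.30 in iTreg (5.04-fold higher), -0.58 ± 0.21 in Th9 and -1.52 ± 0.25 in Th2 (34.9% of naive). This probe placed the cell types in the order iTreg, naive, Th9 and Th2. The step from naive to Th9 was small and stood at -0.09 with no normalisation. The second probe, for transcript NM_001168392, read 297 to 313 in naive cells, 328 in Th2, 338 in Th9 and 1230 in iTreg. Its ratios were 1.72 ± 0.27 in iTreg, 0.02 ± 0.21 in Th9 and -0.08 ± 0.21 in Th2, so naive, Th2 and Th9 did not differ beyond their error. The third probe, again for NM_016894, was dim and read 230 to 250 in naive cells, 97 in Th2, 124 in Th9 and 786 in iTreg. It gave 1.43 ± 0.26 in iTreg and -0.98 ± 0.29 in Th9, and in Th2 it was not well above background and 2.38-fold lower than in naive cells. Whether the transcripts differ in abundance or the probes in their response was not tested. Against Th2, the iTreg level was 14.4-fold higher by the first probe and 3.48-fold by the second. By the third it was 6.41-fold in the same measure, with the Th2 spot not well above background, and 7.26-fold when the Cy5 channel levels were set against each other. For a probe at background in a group, the brighter level was compared with the dim spot's own level or the lowest level well above background on that array, whichever was higher. For the third probe it was the spot's own level, so its Th2 values are uncertain estimates and not limits.

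Slc9b2 (NM_178877) was near the detection limit in naive cells and rose in all 3 cultures. Its naive channels read 114, 126 and 130.5 over a background of 22 to 33, Th2 read 653, Th9 read 991 and iTreg read 6511. The log2 ratios were 2.11 ± 0.35 in Th2 (4.32-fold higher), 2.73 ± 0.38 in Th9 (6.63-fold) and 5.29 ± 0.62 in iTreg (39.1-fold). In iTreg against naive Slc9b2 ranked 7th of 11116 genes. Th2 and Th9 stood 0.62 ± 0.52 apart, which is under 2 times the error, so their order is not firm. The naive signal was weak, and the iTreg value was 6.07 with the scanner software's processed signals. The distance from iTreg to Th2, 3.18 ± 0.71, was 3.32 when the Cy5 channels were compared directly.

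1110032F04Rik (NM_001167996) rose stepwise over the cell types. The naive channels read 571, 568 and 565.5, Th2 read 1118, Th9 read 2434 and iTreg read 7514.5. The ratios over naive were 0.68 ± 0.21 in Th2, 1.77 ± 0.27 in Th9 and 3.44 ± 0.40 in iTreg (10.8-fold higher). The order was iTreg, Th9, Th2 and naive, and each step was larger than 2 times its error, although the step from naive to Th2 was under 2-fold. The SD over the naive channels was 0.022 for this gene and 0.017 for Smpdl3a. It was 0.084 for Slc9b2, 0.11 for Cd7 and 0.12 for the first Ramp1 probe, and for these 3 probes the naive channel of the iTreg array was the highest. All of these were below the 95th percentile over all genes, 0.153.

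**Figure D2:**
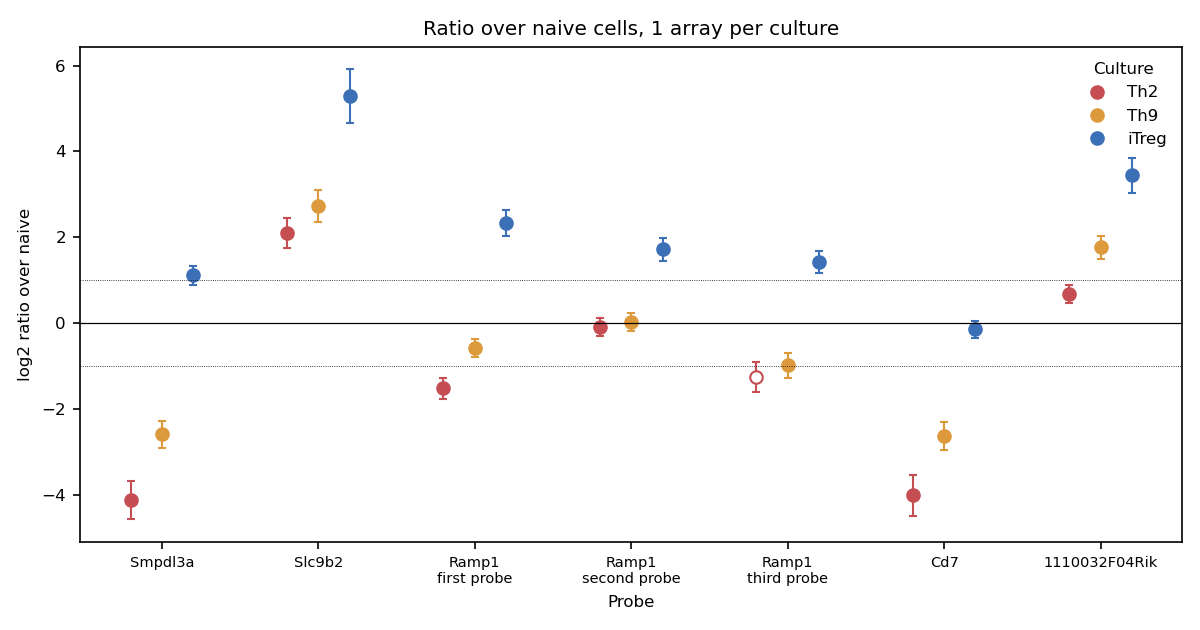
Log2 ratio over naive of each probe in the Th2, Th9 and iTreg cultures, with error bars of the scanner software's error (1 array per culture) and dotted lines at 2-fold. Only Slc9b2 and 1110032F04Rik were above naive in all 3 cultures, and Cd7 in iTreg stood at -0.14; the open point was not well above background in Th2.

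The Th9 culture also received TGF-beta, at a lower dose and with IL-4. Its comparison with iTreg was not the one the genes were picked on. It uses the same iTreg array, however, so a high iTreg value raises both, and the counts and ranks here are descriptions. All 5 genes were at least 2-fold lower in Th9 than in iTreg, where 6.81% of 10477 genes were higher in iTreg and 6.29% lower. Smpdl3a differed by 3.69 ± 0.39 (12.9-fold), the 3rd highest value of all measured genes. Ramp1 differed by 2.91 ± 0.37 by its brightest probe, Slc9b2 by 2.56 ± 0.72, Cd7 by 2.49 ± 0.39 and 1110032F04Rik by 1.67 ± 0.48. In the Th9 culture, which also received TGF-beta, none of the 5 genes reached its iTreg level. The media also differed in the doses of TGF-beta and IL-2 and in the presence of IL-4 or its antibody, and which of these moves with the genes cannot be told apart.

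Between the IL-4 cultures, the brightest probe of each gene read higher in Th9 than in Th2, by less than 2 times its error for Slc9b2. At least 2-fold higher in Th9 were 3 of the 5 genes and none was lower, where 1.28% of 10456 genes were higher and 1.38% lower. They were Smpdl3a (1.53 ± 0.55), Cd7 (1.38 ± 0.58) and 1110032F04Rik (1.09 ± 0.34). Ramp1 was at 0.94 ± 0.33 by its brightest probe and 0.10 ± 0.30 by the second (-0.09 with median centring), and Slc9b2 at 0.62. This comparison shares the Th2 array with the one used to choose the genes, so a low Th2 value raises both. With other settings the count was 2 to 4 of 5. The Th9 level of all 5 genes lay between Th2 and iTreg, at 0.19 (Slc9b2), 0.24 (Ramp1), 0.29 (Smpdl3a), 0.36 (Cd7) and 0.40 (1110032F04Rik) of the log2 distance by the brightest probe. The second Ramp1 probe placed Th9 at 0.06 and the third, with Th2 not well above background, at 0.10. Of 716 genes at least 2-fold higher in iTreg than in Th2, 65.4% had such an intermediate Th9 level, with a median place of 0.12 and quartiles of -0.04 and 0.34.

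**Figure D3:**
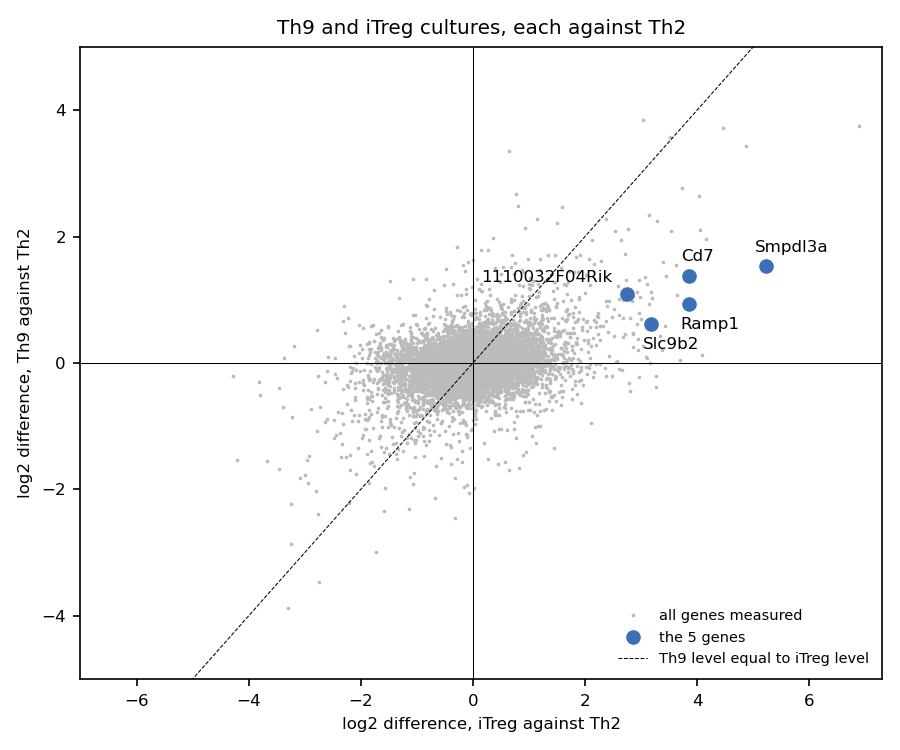
Log2 difference of Th9 against Th2 (vertical) and of iTreg against Th2 (horizontal) for all genes measured on the 3 arrays (grey) and the 5 genes (blue, brightest probe), 1 array per culture. The 5 genes lie at 2.76 or more on the horizontal axis and between the horizontal zero line and the dashed line of equal Th9 and iTreg levels; the horizontal position is what they were chosen on.

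In the comparison used for the choice, iTreg against Th2, 5 of 5 genes were at least 2-fold higher, as 6.87% of 10535 genes were (6.69% were lower). The values were 5.23 for Smpdl3a, 3.86 for Cd7, 3.85 for Ramp1, 3.18 for Slc9b2 and 2.76 for 1110032F04Rik, at ranks 2, 9, 10, 27 and 56 from the highest. Their relation to naive cells differed from gene to gene. Of the 716 such genes measured on all arrays, 323 (45.1%) were, like Cd7, within 2-fold of naive in iTreg and lower in Th2. Smpdl3a and, by its brightest probe, Ramp1 belonged to a group of 24 genes (3.35%). These were at least 2-fold above naive in iTreg and at least 2-fold below it in Th2. The third Ramp1 probe had the same pattern, at 1.43 in iTreg and, with its Th2 spot not well above background, 2.38-fold lower in Th2. The second probe did not, at 1.72 in iTreg and -0.08 in Th2. 1110032F04Rik was among 124 (17.3%) that were higher in iTreg and within 2-fold in Th2, and Slc9b2 among 30 (4.19%) that were higher in both.

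Counts over all genes depended on how the arrays were scaled. Calls split into higher and lower genes with 50.5% higher in Th2 against naive (77.4% with median centring, 75.8% with no normalisation), 49.8% in Th9 against naive (65.2% and 75.9%) and 55.7% in iTreg against naive (40.6% and 81.8%). The share was 48.2% in Th9 against Th2 (29.5% with median centring), 52.0% in iTreg against Th9 (15.3%) and 50.7% in iTreg against Th2 (7.82%). Median centring moved the median of all genes to -0.59 in iTreg against Th2 and to -0.37 in iTreg against Th9. Under it the lowest iTreg against Th2 value among the brightest probes was 2.22, for 1110032F04Rik, and the second Ramp1 probe was at 1.32.

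Relatives of the 5 genes were then examined in lists of their families and partners. Of 9 other genes of the sphingomyelinase and ceramidase family, 4 were measured, and none was 2-fold apart between iTreg and Th2. Smpd1, the acid sphingomyelinase, stood at -0.01 and Smpd4 at -0.83, and the list's median was -0.15. Smpdl3b, the closest relative of Smpdl3a, was not well above background in any channel. With median centring Smpd4 was at least 2-fold lower. The difference in Smpdl3a was thus not seen in the other measured genes of the list. Smpdl3a is also an LXR target, and of 9 measured genes on a list of LXR targets and receptors, 2 were at least 2-fold higher in iTreg than in Th2 and 1 was lower. Abca1, which exports cholesterol from cells, was at 2.01 and was 1.13 above naive in iTreg, and Mylip, a ligase that lowers the LDL receptor, was at 1.25 but at -2.14 over naive in iTreg. Mylip was no longer 2-fold higher with median centring. Scd2, a fatty acid desaturase, was at -1.32, and the list's median was -0.07.

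For Slc9b2, 5 of 13 listed sodium-proton exchangers and their partners were measured on both arrays and none was 2-fold apart between iTreg and Th2, with a median of 0.29. Slc9a3r1, a scaffold for such exchangers, was nearest to it at 0.96 and passed 2-fold with the processed signals and the authors' values. Chp1, a cofactor, was 2-fold lower with median centring. Slc9a9 and Slc9b1 were well above background in iTreg but not in Th2 or Th9, so they are not among the 5. In iTreg they were at -0.81 and 0.12 over naive, and naive Slc9b1 was above background on the iTreg array alone. The Ramp1 partners gave the largest opposite value. Ramp3, which with the same partner forms an adrenomedullin receptor, was at 1.82 in Th2, 0.97 in Th9 and -1.41 in iTreg over naive. Ramp3 was thus lower in iTreg than in Th2 by -3.23, where Ramp1 was higher by 3.85. Calcrl, the receptor that needs a RAMP at the cell surface, was not well above background in any culture (and in naive cells on the iTreg array alone was it above), nor were Ramp2 and Calcr. The only other member measured on both arrays was Crcp, an intracellular protein linked to CGRP signalling, at -0.31. It was 2-fold lower with median centring. The ligand genes were not measured there because naive cells were at background on those arrays. In culture channels Adm and Iapp were well above background in every culture, Calca in Th9 and iTreg, Calcb in Th9 and Adm2 in Th2.

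For Cd7, 10 of 12 listed partners and T cell surface receptors were measured, and 2 were at least 2-fold higher in iTreg than in Th2. Cd96, an adhesion receptor, was at 3.14 and Cd27, a costimulatory receptor, at 1.62. Like Cd7, both were near naive in iTreg, at 0.11 and -0.06, and lower in Th2, at -3.04 and -1.68. The list's median was 0.50. Cd5 was at -0.05 and Cd2 at 0.32. With median centring Cd5 and Cd6 were 2-fold lower. The SECTM1 genes Sectm1a and Sectm1b were not well above background in any channel. Lgals1, whose product galectin-1 binds CD7, was 1.54 to 1.72 above naive in all 3 cultures. Genes of the naive state also stayed higher in iTreg, with 5 of 6 markers at least 2-fold above Th2. Among them were Klf2 (3.64) and S1pr1 (2.61), although both were below naive in iTreg (-1.27 and -1.13). Tcf7, also counted, was at 1.60 by the probe used and 0.67 by another probe. The relation of these naive-state genes to the kept Cd7 level was not tested.

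The TGF-beta response list had 6 of 11 measured genes at least 2-fold higher in iTreg than in Th2 and 3 lower, with a median of 1.19. Nt5e (4.46), which encodes CD73, led it, followed by Skil (2.07), a SMAD repressor, Pmepa1 (1.80), Smad7 (1.65), Tgif1 (1.23) and the receptor Tgfbr1 (1.19). Ltbp3 (-1.56), Gadd45b (-1.52) and Bhlhe40 (-1.10) were lower. With median centring 4 were higher and 4 lower. Of 16 measured Treg genes 4 were higher and 3 lower, and the median was 0.00. Foxp3 was at 4.16, Ikzf2 at 2.43, Il2ra at 1.58 and Ikzf4 at 1.36 (0.32 by another probe), and Lag3 was at -1.52, Socs2 at -1.06 and Tigit at -1.02. With median centring 2 were higher and 7 lower. In Th9 against Th2 the 6 higher genes ranged from 0.41 (Tgif1) to 3.71 (Nt5e), with Pmepa1 at 0.47, Smad7 at 0.69, Tgfbr1 at 1.47 and Skil at 1.65.

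**Figure D4:**
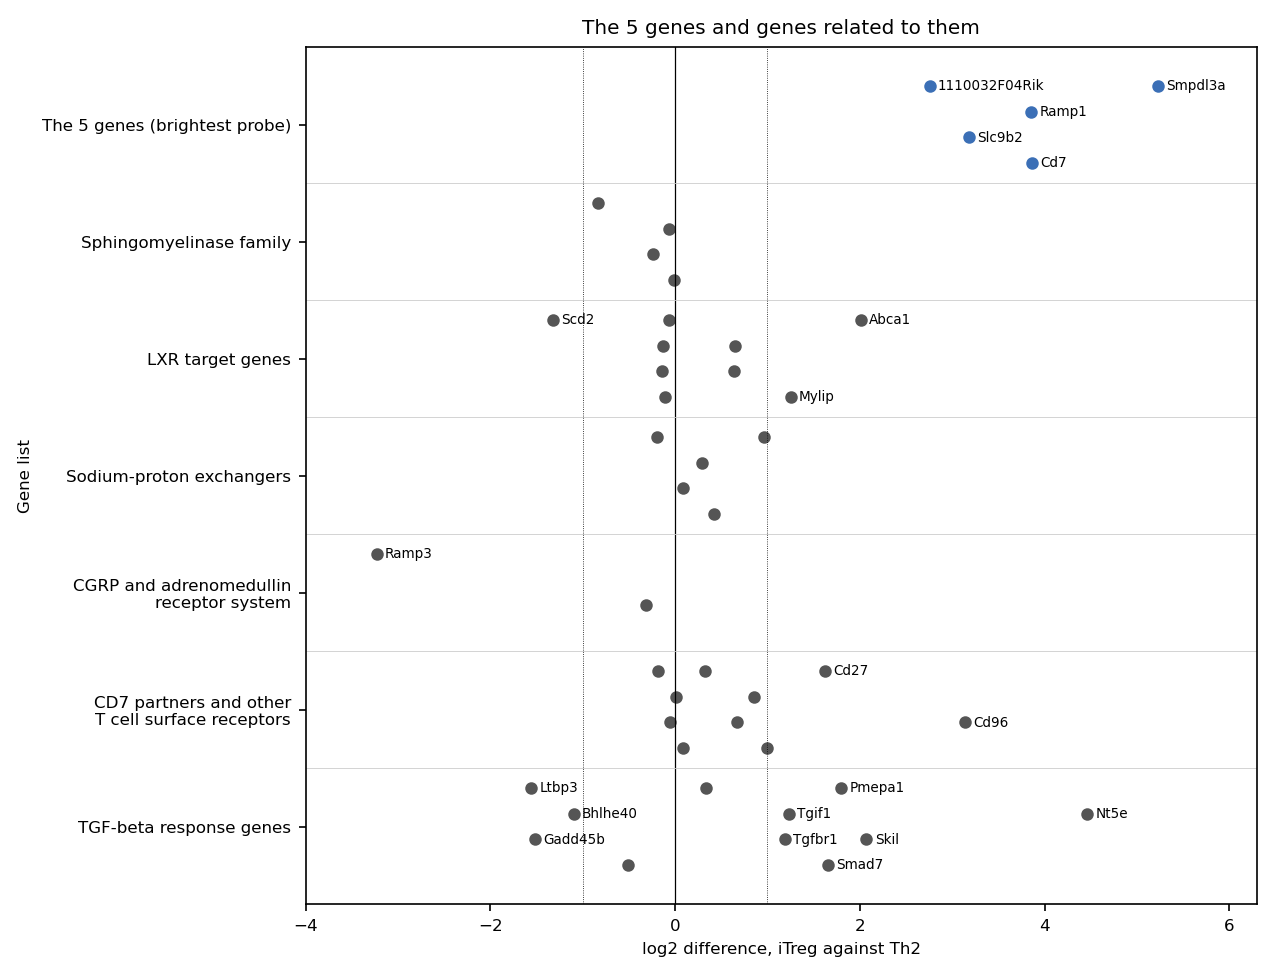
Log2 difference of iTreg against Th2 (horizontal, 1 array per culture) for the 5 genes (blue) and the measured genes of 6 lists of relatives, partners and TGF-beta response genes (grey), with dotted lines at 2-fold. Names are given where the difference was at least 2-fold; Ramp3 lies at -3.23, opposite to Ramp1, and Nt5e and Cd96 were the highest outside the 5 genes.

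The genes with the most similar pattern were sought among 10345 genes detected in all 6 channels. The measure was the Euclidean distance between log2 levels in these channels, each gene centred on its own mean. For Smpdl3a the nearest gene was Cd7 itself (distance 1.05), then the chemokine receptor Cxcr6 (1.18) and Cd96 (1.41). Cxcr6 was at -3.01 in Th2, -2.96 in Th9 and 0.69 in iTreg over naive. For Cd7 the nearest were Cd96 (0.881), Glcci1 (0.903) and the lysophosphatidic acid receptor Lpar6 (0.952). Another probe of Glcci1 was within 0.02 of naive in all 3 cultures, so its place is uncertain. For Ramp1 they were Dhrs3 (0.758), which reduces retinal, Zfyve28 (0.780) and the alcohol dehydrogenase Adh1 (0.819), with Adh1 at -1.93, -0.55 and 1.52 in Th2, Th9 and iTreg.

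For Slc9b2 the nearest genes were Rgs16 (0.844), a regulator of G protein signalling, the tubulin Tubb2b (0.962) and Lzts2 (1.28). Rgs16 was at 2.68, 3.66 and 5.51 over naive in the same order of cultures. For 1110032F04Rik they were Lzts2 (0.684), Fut7 (0.685), a fucosyltransferase that makes selectin ligands, and Gsto1 (0.736), a glutathione transferase. Lzts2 was near both Slc9b2 and 1110032F04Rik, at 0.97, 2.22 and 4.08.

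The nearest protein-coding gene on either side of each of the 5 genes was also looked up in RefSeq, a step added after the values of the 5 genes were known. Of the 10 neighbours 9 were on the array, and 4 of them were measured on both the iTreg and the Th2 array. All 4 were at least 2-fold higher in iTreg than in Th2 by the probe used, where 6.87% of all genes were. The values of neighbouring genes had also been seen, so this count is a description. It includes Csnk1d, whose other probe was at -0.55. Bdh2, a dehydrogenase gene beside Slc9b2, was at 3.04 ± 0.46 in Th2, 4.07 ± 0.56 in Th9 and 6.23 ± 0.73 in iTreg over naive. Slc9b2 and Bdh2 were thus both above naive in all 3 cultures and highest in iTreg, and their iTreg against Th2 values were 3.18 and 3.19. Ube2f, a conjugating enzyme gene beside Ramp1, was at -0.68, 0.16 and 1.84, and at 2.52 ± 0.35 in iTreg against Th2 (1.47 by its other probe). Ift80, a ciliary transport gene beside 1110032F04Rik, was at 2.21 ± 0.35 in iTreg against Th2, but below naive in Th2 (-2.03) and Th9 (-1.29). Csnk1d, a kinase gene beside Cd7, was at 1.21 ± 0.32 by the probe used, 0.44 with median centring and -0.55 by its other probe, which was above naive in all 3 cultures. Its direction is therefore uncertain. Of the other neighbours, Fabp7, Rbm44 and Sectm1b were at background in every culture, Slc9b1 was above it in iTreg alone (0.12 over naive) and Il12a in Th9 alone. The probes were not tested for cross-hybridisation or for transcripts that run from a gene into the next.

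**Figure D5:**
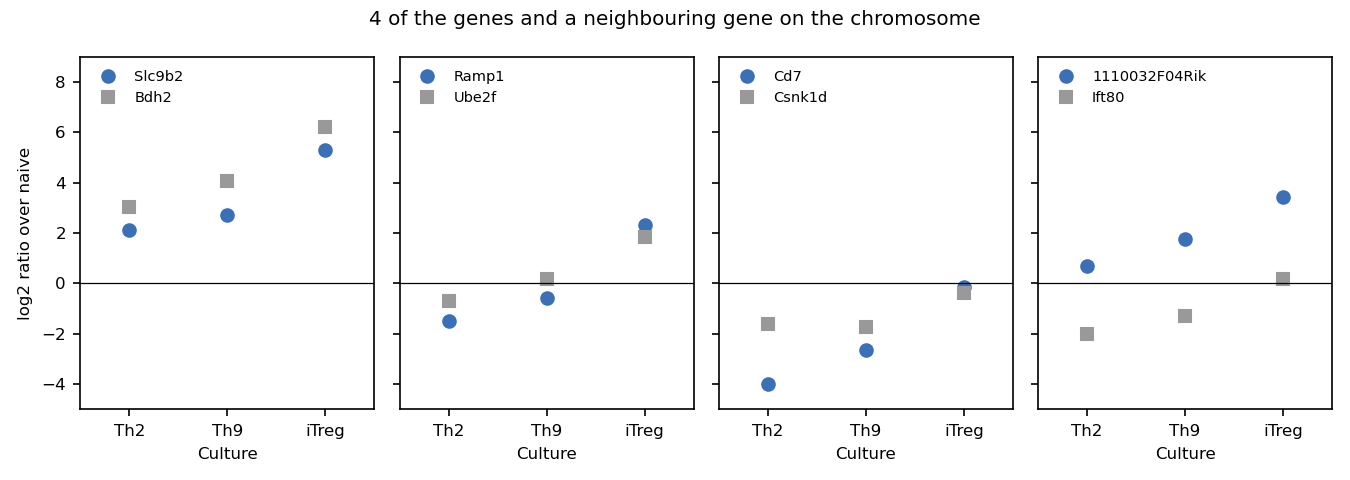
Log2 ratio over naive in the Th2, Th9 and iTreg cultures (1 array each) for 4 of the genes (blue circles, brightest probe) and the measured gene next to each on the chromosome (grey squares). Slc9b2 and Bdh2 stand at 5.29 and 6.23 in iTreg; the Csnk1d points are those of the probe used, and its other probe gave the opposite direction against naive.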

How the data were processed

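Expression was measured on 3 Agilent 2-colour arrays, 1 per culture. The authors deposited scanner files with median spot and background intensity, quantified with Agilent Feature Extraction 11.0.1.1 per the file headers (9.3.2.1 per the submitters' processing notes). The deposited files also hold processed intensity (background-subtracted and dye-normalised by that software) and, per the file headers, log10 ratios of Cy5 over Cy3 with their error. The authors' deposited series values are log2 ratios; they equalled the processed ratio plus 0.0562, 0.0206 and 0.0365 (Th2, Th9, iTreg) within 0.001 for 99.3% to 99.4% of probes.

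Median intensities were corrected by normexp (offset 50) and normalised by loess within arrays (limma 3.58.1, R 4.3.3, the data.table package, version 1.17.8, jsonlite 2.0.0). Control and outlier spots had no weight in the loess, and outliers were dropped. Channel levels were scaled by Aquantile. The normalisation was tested on simulated arrays with known changes in a small share of spots, equal in number up and down. Many more genes differed on the real arrays, so this does not test how the counts depend on scaling. Tables were made with Python 3.11.15, pandas 2.3.3, numpy 2.4.6 and matplotlib 3.10.9. Of 39429 probes, 26049 were named by RefSeq accession (GRCm38.p6, names only). For 5268 genes with several probes the brightest was used, and all Ramp1 probes are shown. A gene counted as measured where the software called it clearly brighter than background for Cy3 and Cy5 alike. Cultures were compared by subtracting log2 ratios, with errors combined as the root of summed squares. Calls are by size, at least 2-fold.

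Named genes were the 5 genes, members of 7 lists with extreme or 2-fold values, Foxp3, Il4, Il9 and 3 nearest patterns per gene. Members and lists were chosen with earlier results of these data known. Neighbouring genes and some list members given as examples were chosen after their values were seen.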

Additional observations from a re-analysis of the deposited data

Results flagged for a closer look

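Smpdl3a and Ramp1 moved in opposite directions against naive cells in different cultures, each by more than the scanner error. The differences between cultures were not tested, since each rests on 1 array. Smpdl3a was at 1.11 in iTreg, -4.12 in Th2 and -2.59 in Th9. The first Ramp1 probe was at 2.33 in iTreg, -1.52 in Th2 and -0.58 in Th9. The third Ramp1 probe was at 1.43 in iTreg and -0.98 in Th9, while the second probe was at 1.72 in iTreg and within its error of naive in Th2 and Th9.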

How the results depend on the processing

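The 5 genes were recomputed under 9 other settings, and 275 of 322 recomputed differences moved by less than the scanner error, while 47 moved by more. Part of the 322 could not move, so this share overstates stability. Dropping the filter on dim spots leaves probes already measured as they were (39 of 39 the same). Keeping outlier spots also moved none of 39. Averaging over probes could change Ramp1 alone and moved 5 values. No difference of at least 2-fold changed its direction. The count of the 5 genes at least 2-fold higher was the same under every setting in 5 of the 6 comparisons, and 2 to 4 in Th9 against Th2. Counts over all genes moved more. With median centring 2781 genes in place of 1620 were higher in Th2 against naive, 320 in place of 713 in iTreg against Th9 and 240 in place of 724 in iTreg against Th2. With no normalisation 2683, 2830 and 1906 were higher in Th2, Th9 and iTreg against naive, in place of 1620, 1673 and 1137. With the authors' series values 1075 were higher in iTreg against Th9. The cause was not tested. No paired analysis was possible because each group has 1 array. No array could be left out, since each is the only one of its culture. Weak signals limit Slc9b2 in naive cells and the third Ramp1 probe, and a dye effect of a single gene cannot be told apart from a difference from naive.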
